A study of Homo sapiens with 6 samples.

Results

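The genes described here make, conjugate and sense bile acids. They are 10 genes fixed by symbol: CYP7A1, CYP8B1, CYP27A1, CYP7B1, AKR1D1, HSD3B7, BAAT, SLC27A5, NR1H4 and NR0B2. Each symbol had 1 row in the deposited table, which listed 60605 genes in all. The libraries came from Huh-7, an established human hepatoma line, so both groups are cultures of 1 line. Every culture was first made lipid-rich by 24 h with 100 µM oleic acid and was then starved. The control group (3 libraries) received DMSO and 0 µM pectolinarigenin for 24 h, and the treated group (3 libraries) received 100 µM of the plant flavone pectolinarigenin for 24 h. Both groups carried the lipid load, so the comparison says nothing about oleic acid itself. Whether the 3 libraries of a group were separate cultures is not said in the labels, and the p-values therefore rest on a spread that may be technical only.

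Bile acids are made from cholesterol in hepatocytes. In the classical route CYP7A1 adds the first hydroxyl group in the endoplasmic reticulum, and in the alternative route mitochondrial CYP27A1 acts on the side chain before CYP7B1 modifies the ring. HSD3B7, AKR1D1 and CYP8B1 then shape the ring, SLC27A5 attaches coenzyme A, and BAAT joins the product to glycine or taurine. NR1H4 encodes FXR, the nuclear receptor that bile acids bind. FXR induces NR0B2, which encodes SHP, a repressor without a DNA-binding domain that lowers transcription of CYP7A1 and CYP8B1 in the liver.

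Treated cells had less RNA of the receptor gene NR1H4 (1.61-fold lower) and of CYP27A1 (1.39-fold lower). They had more RNA of AKR1D1 (2.19-fold) and more reads on NR0B2 (1.76-fold). NR0B2 lies inside the span of NUDC, a gene read far more, and its ratio to NUDC overlapped between the groups. BAAT was low in every control library and about 5.02-fold higher in treated libraries in a fit that admits low genes. It passed the filter of that fit through the group where it is high. CYP7A1 was not detected, and CYP7B1 and CYP8B1 were at 0 to 4 counts per library.

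The main test was the quasi-likelihood test of edgeR on the authors' raw counts, over the 12829 genes with a mean of at least 1 FPKM (counts scaled to gene length and library total) over the 6 libraries. P-values were adjusted over all of these genes by the Benjamini-Hochberg method, and a gene was called at an adjusted p under 0.05. Of the 10 genes, 5 passed the expression filter: NR1H4, CYP27A1, AKR1D1, NR0B2 and HSD3B7. Of these 5, 2 were called higher (AKR1D1 and NR0B2), 2 lower (NR1H4 and CYP27A1) and HSD3B7 was not called. Among all tested genes 50.6% were called, 25.3% higher and 25.3% lower, so a call by itself is common in this comparison. The median log2 fold change was -0.47 over the 5 tested members and 0.00070 over all tested genes. Calls of at least 2-fold were rarer, at 1.96% of tested genes higher and 1.92% lower, and AKR1D1 is among the former.

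Total counts per library ranged from 15140022 to 20311261. Treated library 3 stood apart from treated libraries 1 and 2 on the second principal component, which held 10.2% of the variance, and had the highest total. The liver label held against its markers: ALB was at 5475 FPKM and AFP at 4815 FPKM in control libraries. Of 9 hepatocyte and hepatoma markers 8 were called lower in treated cells and 1 (APOA1) was not called, 6 being called lower without TMM factors, with the filterByExpr filter, in both limma fits and without control library 1, 2 or 3 or treated library 2. Their summed level was 12592 to 12794 FPKM in control libraries and 9191 to 10003 FPKM in treated ones. Leukocyte markers (2 genes) summed to at most 0.31 FPKM and stellate or fibroblast markers (4 genes) to at most 0.53 FPKM in any library, with COL1A2 at 1 count in control libraries and 0 in treated ones. In the filterByExpr fit COL1A1 and PDGFRB, at means of 0.20 and 0.23 FPKM in control libraries, were called lower (edgeR adjusted p = 5.54e-04 and 1.37e-04). Endothelial markers (2 genes) summed to 2.31 to 2.62 FPKM in control libraries against 1.16 to 1.37 FPKM in treated ones. Nearly all of it was PECAM1, which was called lower (-1.05 on the log2 scale, SE 0.10, edgeR adjusted p = 1.12e-06). Cholangiocyte markers (3 genes) summed to 48.56 to 50.55 FPKM against 52.25 to 59.49 FPKM, mostly EPCAM, which was not called (edgeR adjusted p = 0.152). KRT19 was called higher (0.68 on the log2 scale, SE 0.23, edgeR adjusted p = 0.0213), though its groups overlapped. It was not called in either limma fit or without control library 1, control library 2 or treated library 3. In bulk RNA, fewer cells of a kind and less RNA per cell cannot be told apart, and the part of the hepatocyte marker shift in the values below was not tested.

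The upstream sequences are shown first for the genes with an entry in the RefSeq promoter table (GRCh38.p14) that were called in the main test (AKR1D1, NR1H4 and CYP27A1) or, below its filter, in the fit with the filterByExpr filter (BAAT), since these genes moved in opposite directions: BAAT and AKR1D1 up, NR1H4 and CYP27A1 down. BAAT passed the filterByExpr filter through the group where it is high, so its call carries that limit. Of the 10 genes 6 had an entry. Each is the 250 bases before the annotated start, 5′ to 3′ on the gene's strand. BAAT has 2 RefSeq starts, and the one nearest the GENCODE 29 gene start is shown. The RefSeq starts of AKR1D1, NR1H4 and CYP27A1 lie inside the GENCODE 29 spans of these genes, so other starts are annotated upstream. Capitals mark a match, on either strand, to AGGTCA, the core motif that FXR, LRH-1 (NR5A2) and many other nuclear receptors bind, or to AAGGCCA, a variant of the LRH-1 motif.
BAAT (chr9:101383565-101383814, minus strand): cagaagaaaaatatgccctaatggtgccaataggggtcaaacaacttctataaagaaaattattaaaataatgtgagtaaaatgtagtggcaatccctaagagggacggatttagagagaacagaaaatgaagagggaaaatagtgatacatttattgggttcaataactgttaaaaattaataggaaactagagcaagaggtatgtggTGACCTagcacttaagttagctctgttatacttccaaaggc
AKR1D1 (chr7:138076209-138076458, plus strand): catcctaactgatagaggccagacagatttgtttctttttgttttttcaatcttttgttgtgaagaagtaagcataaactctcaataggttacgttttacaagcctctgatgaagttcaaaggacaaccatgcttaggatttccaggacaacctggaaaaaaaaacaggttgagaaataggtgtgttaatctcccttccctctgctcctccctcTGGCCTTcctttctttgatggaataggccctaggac
NR1H4 (chr12:100503110-100503359, plus strand): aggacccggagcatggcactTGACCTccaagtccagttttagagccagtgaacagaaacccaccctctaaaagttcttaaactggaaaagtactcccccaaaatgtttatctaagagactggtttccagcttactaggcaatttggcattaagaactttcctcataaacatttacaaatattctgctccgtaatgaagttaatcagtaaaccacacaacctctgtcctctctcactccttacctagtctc
CYP27A1 (chr2:218781897-218782146, plus strand): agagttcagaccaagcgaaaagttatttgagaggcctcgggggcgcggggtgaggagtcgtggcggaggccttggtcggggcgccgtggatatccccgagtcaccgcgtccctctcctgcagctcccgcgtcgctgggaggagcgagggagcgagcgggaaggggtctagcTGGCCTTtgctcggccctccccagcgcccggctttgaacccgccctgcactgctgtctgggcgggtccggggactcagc

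AGGTCA on either strand was present in 12.1% of 35116 promoters of the same length and AAGGCCA in 4.35%. BAAT and NR1H4, which moved in opposite directions, each held 1 AGGTCA match on the opposite strand, at 41 to 36 and 230 to 225 bases before the start. AKR1D1 and CYP27A1, which also moved in opposite directions, each held 1 AAGGCCA match on the opposite strand, at 36 to 30 and 79 to 73 bases before the start. HSD3B7 held 2 AGGTCA matches. The arrangement FXR prefers, AGGTCA facing TGACCT with 1 base between, was in 0 of the 35116 promoters in these exact letters. AAGGTCA, the other LRH-1 motif, which contains AGGTCA, and CAAAGTCCA, bound by HNF4A, were searched in the same way and matched none of the 6 entries for these genes. They were present in 3.44% and 0.325% of all promoters. A missing match says only that these letters are not in this window.

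**Figure D1:**
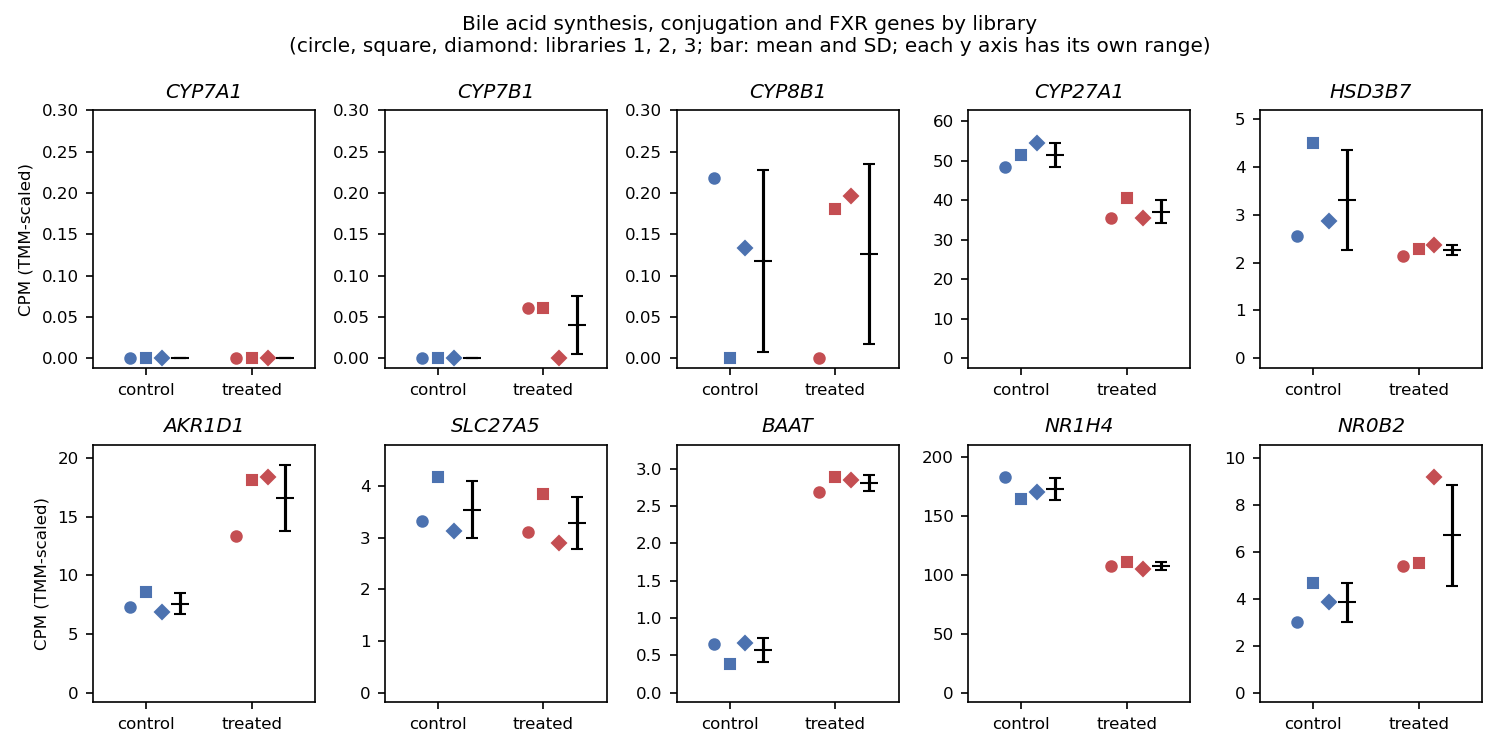
Normalised counts (CPM, which share 1 library total after TMM scaling) of the 10 genes in each library, with the y axis of each panel on its own range and a bar for the mean and SD of 3 libraries. The 3 treated values lie above all control values for AKR1D1, BAAT and NR0B2 and below them for NR1H4, CYP27A1 and HSD3B7. Such non-overlap is common here: 29.4% of all tested genes had all treated values higher and 29.2% had all lower.

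CYP7A1 (chromosome 8, 58490178 to 58500236, GRCh38, as are the other positions), the rate-limiting enzyme of the classical route, had 0 counts in all 6 libraries. A count of 0 allows a level of up to 0.148 to 0.198 CPM per library (3 counts), for counting error only. CYP7B1 (chromosome 8, 64587763 to 64798761), which acts after CYP27A1 in the alternative route, had 0 counts in the 3 control libraries and 1, 1 and 0 counts after treatment, so no fold is given. CYP8B1 (chromosome 3, 42856005 to 42876165), which sets how much cholic acid is made, had 4, 0 and 2 counts in control libraries and 0, 3 and 4 counts in treated ones. Its 6 control and 7 treated counts gave a ratio of 1.13 with a 95% interval of 0.326 to 4.08 (exact binomial, counting error only). The groups overlapped, and no change of CYP8B1 was detectable at this depth. CYP8B1 lies within the span of ACKR2 on the other strand and shares 142 exon bases with it, and whether the authors counted by strand is not stated in the labels. The main SHP-repressed genes of the pathway, CYP7A1 and CYP8B1, thus gave too few reads to show a direction.

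CYP27A1 (chromosome 2, 218781749 to 218815293), the sterol hydroxylase of the alternative route, was the best detected of the 6 synthesis enzymes. CYP27A1 had 886, 948 and 818 counts in the controls and 579, 674 and 720 counts after treatment, or 15.95, 17.04 and 18.11 FPKM against 12.09, 13.86 and 11.88 FPKM. The groups did not overlap on the FPKM scale (17.0 ± 1.1 against 12.6 ± 1.1 FPKM, SD, n = 3 each). All treated values were lower, as in 29.2% of tested genes on the CPM scale. CYP27A1 fell by 0.47 on the log2 scale (SE 0.075, edgeR adjusted p = 1.05e-04). It was called in all 15 alternative fits, with log2 fold changes from -0.54 to -0.41 and adjusted p from 1.18e-07 to 0.00319. CYP27A1 receives electrons from ferredoxin, and of that chain FDXR, the reductase, fell by 0.56 on the log2 scale (SE 0.13, edgeR adjusted p = 0.00222) while the ferredoxin gene FDX1, chosen after its values were seen, had a log2 fold change of 0.23 (SE 0.11, edgeR adjusted p = 0.0828). FDX1 passed without TMM factors (edgeR adjusted p = 0.0450), without a filter (0.0497) and without treated library 1 (0.32, 0.0197), and had 0.12 without treated library 3 (0.330).

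AKR1D1 (chromosome 7, 138002324 to 138117986), the reductase that bends the steroid ring into the shape typical of bile acids, had 134, 158 and 103 counts in control libraries and 218, 301 and 374 counts in treated ones. In CPM these were 7.32, 8.59 and 6.87 against 13.3, 18.1 and 18.4, with every treated library above every control library, as in 29.4% of tested genes. AKR1D1 rose by 1.13 on the log2 scale (SE 0.14, 95% interval 0.84 to 1.42, edgeR adjusted p = 8.43e-06), a larger log2 fold change than in 98.3% of tested genes. It was called in all 14 alternative fits that tested it, with log2 fold changes from 0.89 to 1.26. The FPKM ratio of AKR1D1 to CYP27A1 was 0.110 to 0.146 in control libraries and 0.329 to 0.455 in treated libraries, so these 2 enzymes of 1 pathway shifted against each other in every library.

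HSD3B7 (chromosome 16, 30985207 to 30989152), the dehydrogenase that oxidises the ring after its first hydroxylation, had 47, 83 and 43 counts in control libraries and 35, 38 and 48 in treated ones. It sat just above the expression filter, at a mean of 1.118 FPKM over the 6 libraries. The control libraries had 1.01, 1.79 and 1.14 FPKM and the treated ones 0.88, 0.94 and 0.95 FPKM. HSD3B7 thus passed the filter of 1 FPKM through the group where it is high, and its fold change carries that limit. In CPM the control libraries were at 2.57, 4.51 and 2.87 and the treated ones at 2.14, 2.29 and 2.36. All treated values were thus lower, as in 29.2% of tested genes, but control library 2 was far above the rest. The log2 fold change was -0.55 (SE 0.23, 95% interval -1.05 to -0.06, edgeR adjusted p = 0.0564) and did not pass. Without control library 2 it was -0.26 (edgeR adjusted p = 0.392), without control library 1 it passed at -0.72 (0.0301), and it also passed with a replicate block at -0.53 (0.0469). HSD3B7 shares 1613 exon bases with AC135048.4 on the other strand, which had 16 to 17 counts in control libraries and 10 to 13 in treated ones.

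Both conjugation genes were below the filter of 1 FPKM and so had no test in the main test. BAAT (chromosome 9, 101360417 to 101383519), which joins bile acids to glycine or taurine, had 12, 7 and 10 counts in control libraries and 44, 48 and 58 counts in treated ones. In FPKM these were 0.14, 0.08 and 0.14 against 0.58, 0.62 and 0.60, so the treated libraries were tightly grouped and far above the controls. Its 29 control counts and 150 treated counts gave a ratio of 5.02 (95% interval 3.35 to 7.75, exact binomial, counting error only). In the edgeR fit with the filterByExpr filter, which tests 16446 genes, BAAT rose by 2.33 on the log2 scale (SE 0.28, 95% interval 1.74 to 2.92, adjusted p = 4.60e-06). BAAT entered this fit through its treated libraries (2.69, 2.89 and 2.85 CPM), being at 0.655, 0.380 and 0.667 CPM in control libraries. Its call there thus rests on a filter passed through the group where it is high. In the edgeR fit without any filter, over 34374 genes, its adjusted p was 1.11e-13 (SE 0.30). The SE was no smaller there, and the edgeR adjusted p of NR1H4 likewise went from 3.25e-07 in the main test to 1.26e-22. The smaller value for BAAT is thus not stronger evidence of its rise. In the filterByExpr fit 5 of the 7 members tested were called, BAAT being the addition, where 46.4% of its 16446 genes were called. Of those genes 23.6% were called higher, and 0.620% were called and at least 4-fold higher. Even at its treated level BAAT stayed under 1 FPKM. It shares 453 exon bases with the pseudogene AL359893.1, which had 1 count over the 6 libraries.

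SLC27A5 (chromosome 19, 58479512 to 58512413), the ligase that activates bile acids with coenzyme A before BAAT acts, had 61, 77 and 47 counts in control libraries and 51, 64 and 59 counts in treated ones. Its FPKM values were 0.41, 0.51 and 0.39 against 0.40, 0.49 and 0.36, and the groups overlapped. In the filterByExpr fit its log2 fold change was -0.10 (SE 0.19, 95% interval -0.50 to 0.29, edgeR adjusted p = 0.679; 0.754 without any filter). The intervals of BAAT and SLC27A5, consecutive steps of conjugation, did not meet, but their difference was not tested. SLC27A5 shares 1131 exon bases with ZNF446 on the other strand, which had 112 to 125 counts in control libraries and 90 to 118 in treated ones, so its own level is uncertain.

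**Figure D2:**
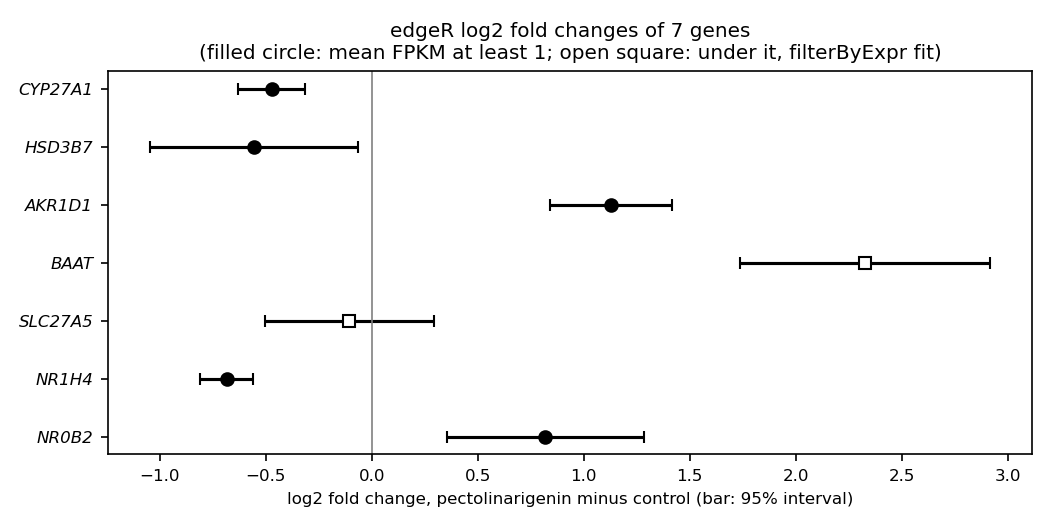
Log2 fold changes (pectolinarigenin minus control, x axis) with 95% intervals from edgeR for the 7 genes with enough counts to fit; filled circles are from the main test and open squares from the fit with the filterByExpr filter. AKR1D1, BAAT and NR0B2 lie to the right of 0, NR1H4 and CYP27A1 to the left, and the interval of SLC27A5 spans 0. BAAT passed the filterByExpr filter through the group where it is high.

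NR1H4 (chromosome 12, 100473708 to 100564413), the gene of the bile acid receptor FXR, was the most abundant of the 10 per gene length. It had 3357, 3035 and 2562 counts in the controls and 1758, 1844 and 2129 counts after treatment. In FPKM these were 49.69, 44.85 and 46.64 against 30.18, 31.19 and 28.89. Every treated library was below every control library, as in 29.2% of tested genes on the CPM scale. NR1H4 fell by 0.68 on the log2 scale (SE 0.058, 95% interval -0.81 to -0.56, edgeR adjusted p = 3.25e-07). It was called in all 15 alternative fits, with log2 fold changes from -0.72 to -0.63. NR1H4 held 63.4% to 69.1% of the summed FPKM of the 10 genes in control libraries and 51.6% to 57.1% in treated libraries. The albumin gene ALB fell by 0.67 on the log2 scale (SE 0.066, edgeR adjusted p = 1.16e-06), the largest fall of the 9 hepatocyte and hepatoma markers. AFP fell by 0.34 (SE 0.058, edgeR adjusted p = 2.25e-04). The median log2 fold change of these markers was -0.28, and APOA1 was not called (-0.13, edgeR adjusted p = 0.194). Whether the fall of NR1H4 is part of this marker shift was not tested.

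NR0B2 (chromosome 1, 26911489 to 26913966), the gene of the repressor SHP and a standard target of FXR, moved in the direction opposite to NR1H4. It had 55, 86 and 58 counts in control libraries and 88, 92 and 187 counts in treated ones, or 3.003, 4.67 and 3.87 CPM against 5.38, 5.54 and 9.19 CPM. Treated libraries 1 and 2 were just above the highest control library, and treated library 3 was far above all others. NR0B2 rose by 0.82 on the log2 scale (SE 0.22, 95% interval 0.35 to 1.29, edgeR adjusted p = 0.00583). Without treated library 3 the log2 fold change was 0.51 (edgeR adjusted p = 0.0240), and over all 14 alternative fits that tested it the adjusted p ranged from 2.18e-06 to 0.0493. The FPKM ratio of NR0B2 to NR1H4 was 0.0511 to 0.0883 in control libraries and 0.155 to 0.273 in treated ones.

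NR0B2 lies inside the span of NUDC (chromosome 1, 26900238 to 26946862), a gene on the other strand that is read far more, and shares 0 exon bases with it. NUDC had 91.1, 102.0 and 97.8 CPM in control libraries and 135.3, 142.6 and 159.8 CPM in treated ones, a log2 fold change of 0.59 (SE 0.069, edgeR adjusted p = 6.14e-06). Counts of NR0B2 were 3.30%, 4.58% and 3.95% of those of NUDC in the controls and 3.98%, 3.88% and 5.75% in treated ones. On this ratio the groups overlapped, with treated library 3 above the rest. With the strand setting not given, reads from unspliced NUDC RNA that fall on NR0B2 cannot be told apart from reads of NR0B2, and the part of NUDC in the rise was not tested.

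In control libraries the order by FPKM was NR1H4, CYP27A1, NR0B2 (3.26 ± 0.71), AKR1D1 (2.19 ± 0.26), HSD3B7 (1.31 ± 0.42), SLC27A5 (0.437 ± 0.064) and BAAT (0.120 ± 0.035), each a mean and SD of n = 3, followed by CYP8B1, with CYP7B1 and CYP7A1 at 0. Neighbours in this order down to BAAT did not overlap between libraries. In treated libraries NR0B2 (5.82 ± 1.80 FPKM) and AKR1D1 (4.93 ± 0.82 FPKM, SD, n = 3 each) overlapped. BAAT (0.58 to 0.62 FPKM) exceeded SLC27A5 (0.36 to 0.49 FPKM) in every treated library on this length-scaled measure. In CPM, which is not scaled to length, BAAT (2.69, 2.89 and 2.85) was below SLC27A5 (3.12, 3.85 and 2.90) in each of them. The summed exon length was 3389 bases for BAAT and 8025 bases for SLC27A5, which also shares exon bases with ZNF446. NR1H4 stood above 94.0% of tested genes in mean control FPKM, and NR0B2 above 32.1%.

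**Figure D3:**
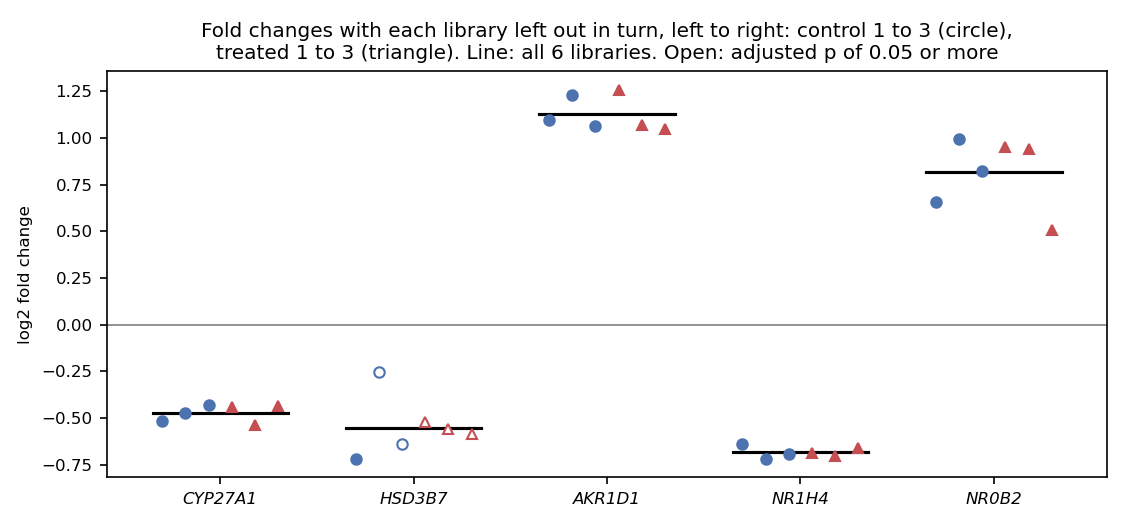
Log2 fold changes (y axis) of the 5 tested genes with each library left out in turn; blue circles leave out a control library, red triangles a treated library, filled symbols passed the test and the line is the value with all 6 libraries. The 6 values keep their sign for each gene, NR0B2 drops to 0.51 without treated library 3, and HSD3B7 ranges from -0.72 to -0.26.

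Of 15 listed further enzymes and carriers of bile acid synthesis 11 were tested, 4 rose, 3 fell and 4 did not pass, with a median log2 fold change of -0.13. The counts of this list and of the 3 lists below stand beside a background of 25.3% of all tested genes called higher and 25.3% called lower. The falls numbered 1 without control library 1 or control library 2. HSD17B4, a peroxisomal enzyme that shortens the side chain, rose by 0.45 on the log2 scale (SE 0.063, edgeR adjusted p = 3.38e-05). POR, which feeds electrons to microsomal P450 enzymes, rose by 0.23 (SE 0.057), and ABCD3, which carries bile acid precursors into peroxisomes, fell by 0.19 (SE 0.056). CYP39A1, an oxysterol hydroxylase, had a log2 fold change of 0.25 (SE 0.090, edgeR adjusted p = 0.0304), and the peroxisomal acyl-CoA ligase SLC27A2, a relative of SLC27A5, had 0.26 (SE 0.082, edgeR adjusted p = 0.0158), both chosen after their values were seen. CYP39A1 lost its call in 4 alternative fits, among them those without control library 1 (edgeR adjusted p = 0.0863), control library 3 (0.108) or treated library 3 (0.124), SLC27A2 without control library 2 (0.0779) or treated library 2 (0.0916), and ABCD3 without control library 1 (0.0565) or control library 2 (0.0523). The third gene that fell, the peroxisomal thioesterase ACOT8 (-0.22, SE 0.084, edgeR adjusted p = 0.0436), chosen likewise, lost its call in 11 of 15 alternative fits, with adjusted p up to 0.167. Of the other oxysterol-forming enzymes CYP46A1 had 5 control and 6 treated counts, and CH25H had 0 counts in all libraries. AKR1C4, which acts directly after AKR1D1, had 23 control and 14 treated counts, and its groups overlapped.

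Among transporters of bile acids and bile lipids 9 of 15 were tested, of which 1 rose, 4 fell and 4 did not pass, with a median log2 fold change of -0.28. The 5 calls among 9 lie near the 50.6% called among all tested genes. By direction they were 4 lower and 1 higher, where the background was 25.3% each way, and this uneven split was not tested. ABCC3, an export pump of the sinusoidal membrane, rose by 0.71 on the log2 scale (SE 0.055, edgeR adjusted p = 1.26e-07). The canalicular pumps ABCC2 and ABCB4, which carry organic anions and phospholipid into bile, fell by 0.58 (SE 0.054) and 0.55 (SE 0.078), and the uptake carrier SLCO2B1 fell by 0.42 (SE 0.070). The bile salt export pump ABCB11, an FXR target chosen after its values were seen, was under the filter with 15, 17 and 12 counts in control libraries and 5, 11 and 12 counts in treated ones. ABCG8, also under the filter and chosen likewise, had 110 control and 37 treated counts. In the filterByExpr fit ABCG8 fell by 1.58 on the log2 scale (SE 0.33, edgeR adjusted p = 9.60e-04) and ABCB11 was not called (edgeR adjusted p = 0.145). SLC10A1, the main bile acid uptake carrier of hepatocytes, had 5 counts in each group. Huh-7 cells in these libraries thus held little RNA for either the main uptake carrier or the main export pump.

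Of 16 listed genes that work with FXR or are known as its targets 15 were tested. Of these 3 rose (MAFG, ICAM1 and C3), 7 fell and 5 did not pass, with a median log2 fold change of -0.26. Among all tested genes 25.3% were called in each direction. FETUB, under the filter, had 145 control and 57 treated counts. In the filterByExpr fit, where 22.7% of genes were called lower, it fell by 1.365 on the log2 scale (SE 0.30, edgeR adjusted p = 0.00128). The fibrinogen genes FGA and FGB fell by 1.08 (SE 0.069) and 0.63 (SE 0.059) on the log2 scale, and the glucuronosyltransferase UGT2B4, whose close copies can share reads, fell by 1.10 (SE 0.084). These 3 are also made mainly by the liver, as are the hepatocyte markers above. So are C3, which rose by 0.28 (SE 0.060, edgeR adjusted p = 0.00136), and SULT2A1, at -0.055 (SE 0.065, edgeR adjusted p = 0.504). Both were named after their values were seen. The part of the hepatocyte marker shift in the falls was not tested. MAFG, an FXR-induced repressor of bile acid synthesis genes, rose by 0.62 (SE 0.061, edgeR adjusted p = 1.25e-06). FGF19, the hormone through which FXR acts on CYP7A1 at a distance, was chosen after its values were seen and fell by 0.39 on the log2 scale (SE 0.11, edgeR adjusted p = 0.00688), from 7.67, 7.21 and 7.04 FPKM to 5.23, 5.66 and 6.25 FPKM. RXRA and RXRB, partners of FXR on DNA, had log2 fold changes of -0.14 (SE 0.067, edgeR adjusted p = 0.101) and -0.17 (SE 0.072, edgeR adjusted p = 0.0610). Without treated library 2 both passed, at -0.21 (edgeR adjusted p = 0.0180) and -0.22 (0.0318), and RXRB also passed with a filter of 5 FPKM (0.0373). Without treated library 3 RXRA was at -0.06 (edgeR adjusted p = 0.356).

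The bile acid exporter subunits SLC51A and SLC51B, FXR targets chosen after their values were seen, had log2 fold changes of 0.35 (SE 0.17, edgeR adjusted p = 0.101) and 0.13 (SE 0.16, edgeR adjusted p = 0.515). SLC51A had 3.56, 4.47 and 4.76 FPKM in control libraries and 4.52, 4.44 and 7.54 FPKM in treated ones. As with NR0B2, its highest value was in treated library 3. It passed in 4 alternative fits, among them those without treated library 1 (0.47, edgeR adjusted p = 0.0350) or treated library 2 (0.49, 0.0299). Without treated library 3 its log2 fold change was 0.03 (edgeR adjusted p = 0.803).

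Among 20 regulators of bile acid synthesis genes 17 were tested, of which 8 fell, 1 rose and 8 did not pass, with a median log2 fold change of -0.25. The 9 calls among 17 lie near the 50.6% called among all tested genes. By direction they were 8 lower and 1 higher, where the background was 25.3% each way, and this uneven split was not tested. NR1I2, which encodes the xenobiotic receptor PXR, fell by 1.27 on the log2 scale (SE 0.14, edgeR adjusted p = 5.23e-06). It had 1.48, 1.84 and 1.73 FPKM in control libraries and 0.62, 0.76 and 0.75 FPKM in treated ones. NR1I2 thus passed the filter of 1 FPKM through the group where it is high. NR2F1, an orphan nuclear receptor, fell by 0.72 (SE 0.056), FOXA1, a pioneer factor of liver genes, by 0.59 (SE 0.064), and PROX1, a corepressor of CYP7A1, by 0.55 (SE 0.066). The gene that rose, CEBPB (0.20, SE 0.076, edgeR adjusted p = 0.0393), lost its call in 6 alternative fits, among them those that left out control library 1 (0.204), control library 2 (0.117), treated library 1 (0.0713) and treated library 2 (0.0799). Of the FGF19 receptor pair, chosen after their values were seen, the coreceptor KLB fell by 0.54 on the log2 scale (SE 0.096, edgeR adjusted p = 2.89e-04) and FGFR4 had a log2 fold change of -0.05 (SE 0.058, edgeR adjusted p = 0.540). HNF4A, an activator of CYP7A1 and CYP8B1 chosen likewise, fell by 0.28 (SE 0.058, edgeR adjusted p = 8.89e-04).

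**Figure D4:**
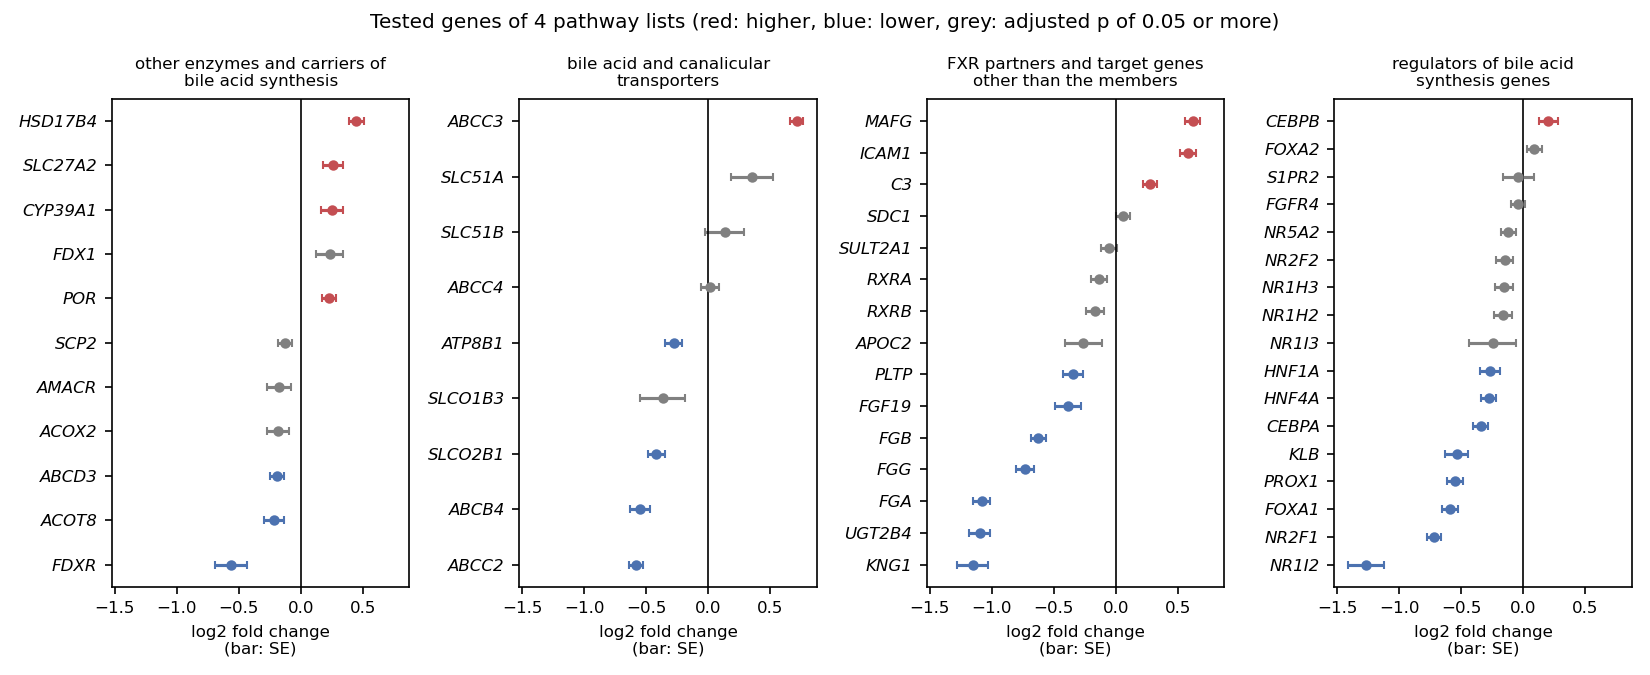
Log2 fold changes (x axis, pectolinarigenin minus control) with SE bars from edgeR for the tested genes of the 4 pathway lists, red where called higher, blue where called lower and grey otherwise. Falls and rises number 4 and 1 among transporters, 7 and 3 among FXR partners and targets, 8 and 1 among regulators, and 3 and 4 among the other synthesis genes.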

How the data were processed

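RNA was sequenced from 3 control and 3 treated libraries of oleic acid loaded Huh-7 cells. The deposited table gave the authors' raw counts per gene and the authors' FPKM values, rounded to 2 decimals. The tools cutadapt 1.9.1, HISAT2 2.0.1 and HTSeq 0.6.1 are named, and the build GRCh38, in the submitters' processing notes, per the labels. Their roles, the annotation release, and how strand and multiply matching reads were handled were each not given in the sources used here. Both the members and the gene lists were chosen with earlier results of these data known.

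Counts were tested with edgeR 4.0.16 (R 4.3.3), with TMM factors, no covariate, 2-sided p-values and a common biological coefficient of variation of 0.0614. SE were derived from the F statistic. Named were the 10 members and, for each of 4 lists, up to 4 tested genes with the smallest p; other names were chosen after their values were seen. Binomial intervals and floors (3 counts) cover counting error only. Alternatives were median-of-ratios or no scaling factors, 3 other filters, DESeq2 1.42.0, limma 3.58.1 on log2(FPKM + 1) and log2(FPKM + 0.1), a replicate block and leaving out each library. Library pairs within a group had chi-square statistics per degree of freedom of 1.53 to 11.1, so none was counted as a duplicate. Tested on simulated counts for the 12829 genes of this comparison, the pipeline called 87 of 100 genes changed 1.5-fold, 94 of 100 changed 2-fold and 16 of 12629 unchanged genes. In the simulation every gene had the common coefficient of variation and nearly all were unchanged. In the data 50.6% of tested genes were called and treated library 3 stood apart, so these counts may not hold for the data. Gene positions and overlaps came from GENCODE 29 by Ensembl identifier, and promoters from RefSeq by symbol.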

Additional observations from a re-analysis of the deposited data

How the results depend on the processing

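CYP27A1, NR1H4, AKR1D1 and NR0B2 kept their direction and their call in every alternative fit that tested them. None of these fits separates reads of NR0B2 from reads of unspliced NUDC RNA. A filter of a mean of at least 5 FPKM left 4098 called genes against 6486 and 2 called members against 4, because AKR1D1, NR0B2 and HSD3B7 were then not tested. Without single libraries 5292 to 6517 genes and 4 to 5 members were called, HSD3B7 being the fifth. With the replicate block 6540 genes and 5 members were called. No shared effect of the replicate numbers was visible. The deviations of same-numbered libraries correlated at -0.00692, 0.0246 and -0.0124, and those of other-numbered ones at -0.0382 to 0.0431. Whether same-numbered cultures were handled together is not said in the labels, and these values cannot decide it. Without TMM factors the median log2 fold change of all tested genes was 0.038, and the called members did not change. Depth limits CYP7A1, CYP7B1 and CYP8B1, the last at an edgeR adjusted p of 0.932 without any filter. BAAT and SLC27A5 were tested in 2 alternatives each.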
